A study of Mus musculus with 30 samples.

Results

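Binding of CTCF was compared between NOS1+ N1E115 cells kept for 3 days at 4% O2 and the same cells kept for 3 days at 20% O2. N1E115 is a mouse neuroblastoma line, and the labels place its cells as neuroblasts of the brain. The CTCF libraries were 4 of the 30 samples of the series, with 2 libraries at each O2 level, and they were taken by antibody and O2 level from the labels. Replicate 1 of both levels was sequenced on one flow cell and replicate 2 on another, per the file headers, so the replicates are called rounds 1 and 2. The labels give 5% CO2 for the round 2 libraries at both O2 levels and state no CO2 level for round 1. Lists of RAD21, H3K9ac and RNA polymerase II (POLR2), with 2 libraries per level each, served to describe the CTCF regions; of these, round 1 was on yet another flow cell. All libraries come from 1 cell line. The labels do not state whether a level's 2 libraries were separate cultures, so p-values reflect library-to-library spread, part or all of which could be technical. The labels leave unexplained a code, Nm21, in the header of the 20% O2 round 1 list.

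CTCF is a zinc finger protein that binds a long DNA motif. Cohesin, the ring complex that contains RAD21, extrudes chromatin loops and is halted where CTCF sits, which makes CTCF sites the anchors of loops and the borders of insulated domains. A smaller part of CTCF binding lies at active promoters, which carry acetylation of histone H3 at lysine 9 (H3K9ac).

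H3K9ac was used to check the cell type. Peaks of H3K9ac lay within 1 kb of an annotated end of 23 of 30 neuroblast and sympathetic genes in each of the 4 H3K9ac libraries. For endothelial markers the count was 0 and 0 of 9 at 4% O2 and 0 and 1 of 9 at 20% O2, and for macrophage and microglia markers it was 3 of 12 in each library. Fibroblast markers were called at 1 and 2 of 11 at 4% O2 and at 1 and 2 of 11 at 20% O2. The count for oligodendrocyte and Schwann cell markers was 3 and 4 of 11 at 4% O2, against 5 and 4 of 11 at 20% O2. For astrocyte markers it was 3 and 3 of 9 at 4% O2 and 4 and 4 of 9 at 20% O2. For scale, H3K9ac was called in all 4 libraries at 78.7% of the 9983 protein-coding genes with a CTCF peak at an end. Of the 11904 protein-coding genes without one, 28.4% had such calls. The marker counts were not tested against these shares.

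The sequences shown are the stretches around a CTCF motif match that lie in promoters where a CTCF region was called in both 4% O2 libraries and in neither 20% O2 library, and the match is to CNAGGNGGC, a part of the core CTCF motif, on either strand. The match shares a promoter with the peak and need not lie under it. They are the 3 such promoters with the highest mean score percentile and the motif upstream of the gene start, and 2 promoters bound in all 4 libraries, chosen in the same way, follow for comparison. Each run is 49 bases from the RefSeq promoter table of GRCm38.p6 (the build mm10), printed 5′ to 3′ on the strand that reads the motif, with the motif in capitals.
Fzr1, 4% O2 only, chr10:81378499-81378547, minus strand: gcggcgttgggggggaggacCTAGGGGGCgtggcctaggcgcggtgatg
Rpl27a, 4% O2 only, chr7:109519105-109519153, minus strand: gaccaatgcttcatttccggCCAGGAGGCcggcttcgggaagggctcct
Rfc1, 4% O2 only, chr5:65335822-65335870, plus strand: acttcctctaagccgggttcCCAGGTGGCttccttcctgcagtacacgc
Nipsnap2, all 4 libraries, chr5:129724943-129724991, minus strand: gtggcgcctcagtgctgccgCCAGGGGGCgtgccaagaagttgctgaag
Copg1, all 4 libraries, chr6:87887704-87887752, plus strand: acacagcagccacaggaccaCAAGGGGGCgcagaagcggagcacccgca

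The authors' score of a peak is read as −log10 of its q-value and ranks peaks within a list, as a percentile from 0 to 100. At Fzr1, an activator of the anaphase-promoting complex, the promoter peak scored 11.1 and 8.08 in rounds 1 and 2 at 4% O2 (percentiles 37.4 and 45.0) and had no peak at 20% O2. At Rpl27a, a protein of the large ribosomal subunit, the scores were 15.2 and 6.88 at 4% O2, with no peak at 20% O2. At Rfc1, the large subunit of the replication clamp loader, they were 14.8 and 6.18 at 4% O2, with no peak at 20% O2. These are middling to weak peaks. In 4% O2 round 2 the nearest summit lay 88 bp from the motif centre at Rpl27a and 21 bp at Rfc1, and no summit lay in the promoter window at Fzr1. At Nipsnap2, a mitochondrial protein, the promoter peak scored 1326 and 439 at 4% O2 and 1139 and 928 at 20% O2. At Copg1, a subunit of the COPI vesicle coat, it scored 1186 and 428 at 4% O2 and 884 and 706 at 20% O2. Both lay among the highest peaks of every list, with the round 2 summit 33 and 20 bp from the motif centre at 4% O2, against 34 and 12 bp at 20% O2. Of 8 genes of 4% O2 only with an upstream motif under the same rule, 0 had it inside a peak of both 4% O2 libraries. Of 405 such genes bound in all 4 libraries, 285 had it inside a peak of every library, where peaks are also wider.

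The motif was less frequent in promoters bound at 4% O2 only than in promoters bound in all 4 libraries. A promoter here is 250 bases before to 50 after a gene start, and it was assigned by the merged CTCF regions that touch it. Of 162 promoters touched at 4% O2 only, 15 (9.26%) held CNAGGNGGC, against 1 of 5 promoters touched at 20% O2 only. The share was 18.6% of 3116 promoters touched in all 4 libraries, 7.86% of 16022 touched in none, and 9.96% of all 21263 promoters. Set against all promoters, the result depends on the form searched. A longer form of the core motif, 12 letters with some of them open, was held by 22 of the 162 promoters (13.6%) and by 0 of the 5. It was held by 22.8% of promoters touched in all 4 libraries, 6.73% of those touched in none and 9.88% of all promoters. Promoters touched at 4% O2 only held a median of 25.5 CG dinucleotides, against 21 in those touched in all 4 libraries and 8 in those touched in none. Summits were deposited for round 2. In the 4% O2 round 2 library the nearest summit lay within 50 bp of the motif centre in 2 of 10 promoters touched at 4% O2 only and in 251 of 365 (68.8%) promoters touched in all 4 libraries. A match is a description of the letters, and promoters were not tested against each other.

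CTCF lists held 124797 and 81759 peaks in rounds 1 and 2 at 4% O2 and 126873 and 73200 peaks at 20% O2. Overlapping peaks (1 bp or more) gave 146989 merged regions, and 40192 regions (27.3%) were called in all 4 libraries. A total of 2126 regions were called in both libraries at 4% O2 and in neither at 20% O2, which is 1.45% of all regions. In the other direction, 959 regions were called in both libraries at 20% O2 and in neither at 4% O2, or 0.652% of all regions. The rounds differed more than the O2 levels: 28940 regions were called in both round 1 libraries alone and 2744 in both round 2 libraries alone. No source used here gives the read depth, and depth, immunoprecipitation efficiency and occupancy cannot be told apart in peak lists. With every list held to its 73200 highest peaks, the counts were 647 at 4% O2 only and 426 at 20% O2 only. Within round 1 alone, 19523 regions were called at 4% O2 and not at 20% O2 and 21612 the other way, so the direction turned; within round 2 the counts were 23374 and 16256.

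Regions called at one O2 level were weak. Their median width was 219 bp at 4% O2 only and 219 bp at 20% O2 only, against 775 bp for regions called in all 4 libraries and 190 bp for all merged regions. Regions of 4% O2 only had median score percentiles of 18.9 and 28.8 in the 2 libraries at 4% O2, and regions of 20% O2 only had 17.5 and 19.5 in the 20% O2 libraries. Regions called in all 4 libraries had medians of 83.1 and 74.7 at 4% O2 and 83.2 and 71.9 at 20% O2.

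Regions of 4% O2 only lay at gene ends more often than regions of 20% O2 only; classes defined over all 4 libraries allow no test over libraries. Of the regions of 4% O2 only, 452 (21.3%) had their centre within 1 kb of an annotated start or end of a protein-coding gene, against 53 (5.53%) of the regions of 20% O2 only. The share was 12.6% for regions called in all 4 libraries and 9.77% for all regions. At gene starts the count was 293 (13.8%) at 4% O2 only and 23 (2.40%) at 20% O2 only. Outside genes lay 28.7% of the regions of 4% O2 only and 52.1% of those of 20% O2 only. Regions called in a single library showed the same order, with 11.9% and 14.1% at gene ends for 4% O2 rounds 1 and 2 and 4.61% and 10.1% for 20% O2 rounds 1 and 2. The difference in share at gene ends between the O2-specific classes was 15.7 percentage points. Compared within one round, where a region needs a call in just 1 library, it was 8.65 points in round 1 and 6.13 points in round 2. Leaving out 1 library gave 9.46 points without 4% O2 round 1, 5.72 without 4% O2 round 2 and 5.36 without 20% O2 round 1.

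**Figure D1:**
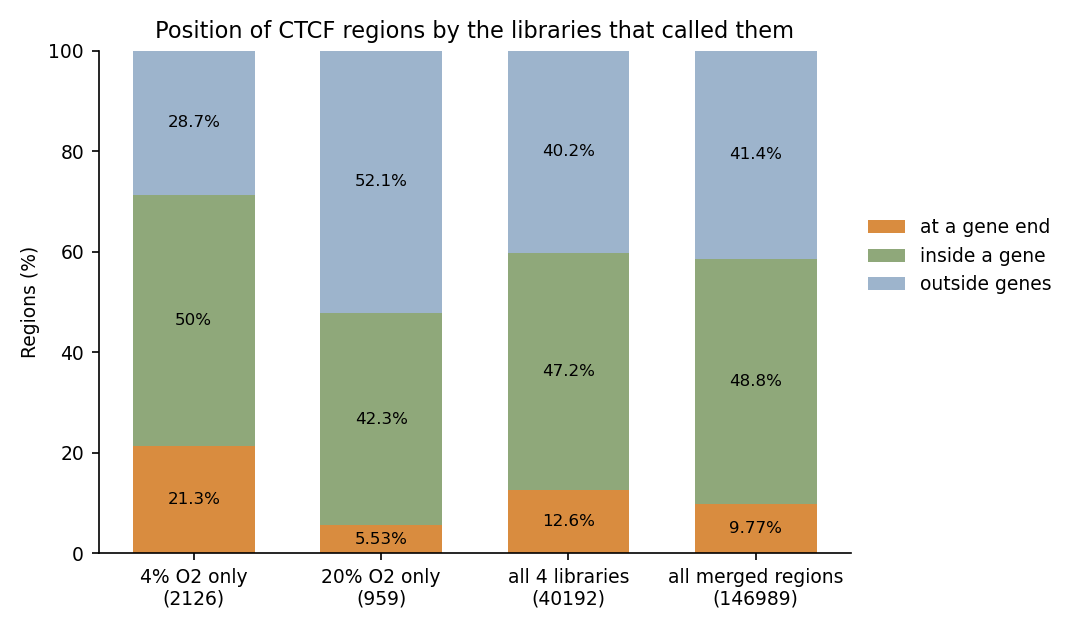
Share of CTCF regions (y axis, percent) with their centre at a gene end (within 1 kb), inside a gene or outside genes, by the libraries that called them (x axis, with the number of regions). Gene ends make up 21.3% of the regions called at 4% O2 only and 5.53% of those called at 20% O2 only.

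The whole lists leaned the same way by less. Peaks at gene ends made up 10.2% and 12.9% of the lists in rounds 1 and 2 at 4% O2 and 8.77% and 11.7% at 20% O2, or 11.5% ± 1.90 and 10.2% ± 2.04 (SD, n = 2 each; exact permutation p = 0.667, two-sided). The groups overlap, since the rounds differ by more than the O2 levels do, and 2 against 2 libraries cannot give a p below 0.333. Within rounds the difference was 1.41 and 1.21 percentage points. Without 4% O2 round 2 it was −0.0308 and without 20% O2 round 1 it was −0.130, which leaves the rounds unequally represented. Peaks outside genes made up 41.1% and 38.6% of the lists at 4% O2 and 43.1% and 41.3% at 20% O2 (exact permutation p = 0.333). Here the 4% O2 libraries both lay below the 20% O2 libraries. With lists of equal length the shares were 42.2% and 38.8% at 4% O2, against 43.5% and 41.3% at 20% O2. The levels then overlapped, as they did with scores of at least 10.

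With lists of equal length, more peaks lay around gene starts at 4% O2. In the 200 bp downstream of starts there were 713 and 963 peak centres in rounds 1 and 2 at 4% O2 and 560 and 861 at 20% O2. In the 200 bp upstream there were 954 and 1006 at 4% O2, against 888 and 994 at 20% O2. Both rounds had more peaks at 4% O2 in each of these bins.

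**Figure D2:**
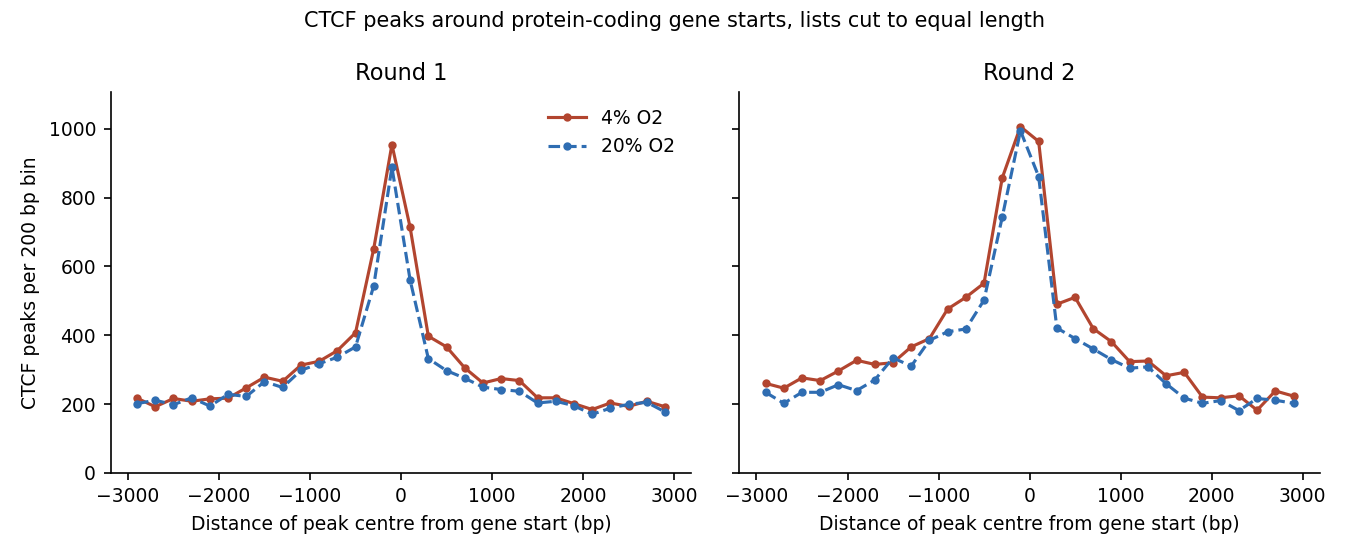
CTCF peaks per 200 bp bin (y axis) by distance of the peak centre from a protein-coding gene start (x axis, bp), for 4% O2 (solid) and 20% O2 (dashed) in each round, with every list held to 73200 peaks. In the 200 bp downstream of starts the counts are 713 and 963 at 4% O2 and 560 and 861 at 20% O2.

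The regions of 4% O2 only overlapped H3K9ac peaks and POLR2 islands more often than the regions of 20% O2 only. H3K9ac peaks overlapped 30.7% and 43.8% of the regions of 4% O2 only in the 4% O2 H3K9ac libraries, rounds 1 and 2, and 28.8% and 39.3% in the 20% O2 H3K9ac libraries. The regions of 20% O2 only were overlapped at 6.78% and 9.28% in the 4% O2 H3K9ac libraries and at 7.82% and 8.45% in the 20% O2 ones. So the acetylation at regions of either class was called at both O2 levels. Of the regions called in all 4 CTCF libraries, H3K9ac overlapped 32.1% and 38.8% in the 4% O2 libraries and 33.5% and 36.7% in the 20% O2 ones. The regions of 4% O2 only lay near these shares, and the regions of 20% O2 only lay below them. POLR2 islands overlapped 46.7% and 56.1% of the regions of 4% O2 only in the 4% O2 POLR2 libraries and 24.5% and 53.1% in the 20% O2 ones. For the regions of 20% O2 only the shares were 12.4% and 14.4% in the 4% O2 POLR2 libraries and 4.8% and 17.6% in the 20% O2 ones. For regions called in all 4 CTCF libraries they were 32.5% and 37.6%, against 15.5% and 38.8%. The POLR2 lists held 19918 and 18494 islands in rounds 1 and 2 at 4% O2, against 11172 and 23262 at 20% O2. The part of list length in these shares was not tested. Both H3K9ac and POLR2 mark gene ends, and their overlap moves with the position of the regions; its part in the difference between the classes was not tested beyond the gene ends described next.

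At gene ends alone, H3K9ac peaks in the 4% O2 libraries overlapped 60.8% and 75.0% of the regions of 4% O2 only and 28.3% and 32.1% of the regions of 20% O2 only. For gene-end regions called in all 4 CTCF libraries the shares were 68.2% and 76.8%, somewhat above those of 4% O2 only. In the 4% O2 RAD21 libraries, RAD21 peaks overlapped 8.63% and 37.4% of the gene-end regions of 4% O2 only and 9.43% and 17.0% of those of 20% O2 only. In the 20% O2 RAD21 libraries the shares were 1.77% and 22.3%, against 3.77% and 17.0%.

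Over all regions, wherever they lay, RAD21 peaks overlapped 7.62% and 30.7% of the regions of 4% O2 only in the 4% O2 RAD21 libraries and 0.80% and 20.2% in the 20% O2 ones. The regions of 20% O2 only were overlapped at 6.05% and 14.5% in the 4% O2 RAD21 libraries and 1.98% and 23.1% in the 20% O2 ones. Regions called in all 4 CTCF libraries were overlapped at 67.3% and 76.3% in the 4% O2 RAD21 libraries and at 56.3% and 81.9% in the 20% O2 ones. The RAD21 lists differed in length, with 39012 and 71225 peaks in rounds 1 and 2 at 4% O2 and 26908 and 73328 at 20% O2. The part of list length in these shares was not tested.

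**Figure D3:**
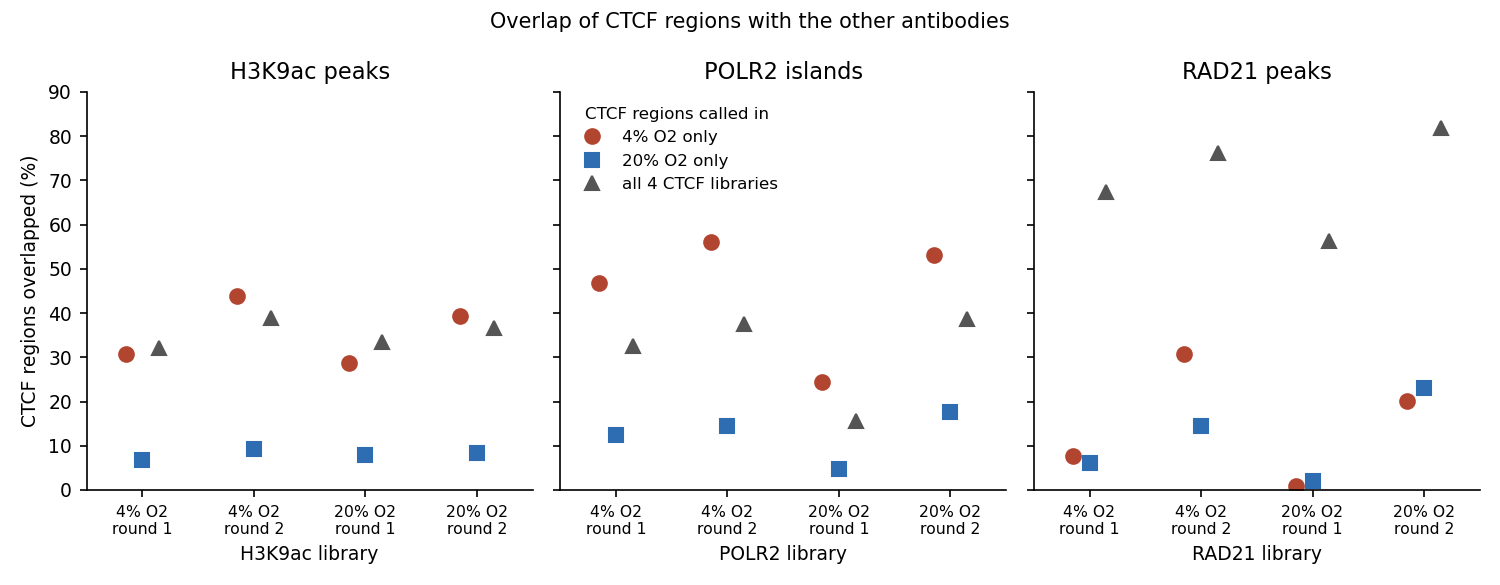
Share of CTCF regions (y axis, percent) overlapped by at least 1 bp in each H3K9ac, POLR2 or RAD21 library (x axis), for regions called at 4% O2 only, at 20% O2 only and in all 4 CTCF libraries. H3K9ac overlaps 43.8% of the regions of 4% O2 only and 9.28% of those of 20% O2 only in the 4% O2 round 2 library, and RAD21 overlaps regions called in all 4 libraries most.

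Chromosomes did not contribute evenly. Chromosome 11 held 218 regions of 4% O2 only and 56 of 20% O2 only, and chromosome 19 held 92 and 23. Chromosome 1 held 109 regions of 4% O2 only and 112 of 20% O2 only, and the X chromosome held 19 and 35. No test was made between chromosomes.

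The 40192 regions called in all 4 libraries allow a comparison of strength. Each was ranked by score within its library, from 0 to 100, and ranks were compared as 4% O2 minus 20% O2. Regions at gene ends had median ranks of 48.1 and 60.4 in rounds 1 and 2 at 4% O2 and 43.7 and 52.3 at 20% O2. The difference was 4.39 percentile points in round 1 and 8.16 in round 2 (mean 6.28, 5056 regions, exact permutation p = 0.667). The levels overlap across rounds, since 20% O2 round 2 lay above 4% O2 round 1. Regions at gene starts differed by 6.17 and 9.77 points in rounds 1 and 2. Regions inside genes differed by −0.0715 and 1.14 points, and regions outside genes by −1.36 and −4.12 points (exact permutation p = 0.333).

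At gene ends, the higher rank at 4% O2 lay with the acetylated regions, though the difference between classes was not tested. The 3262 regions at gene ends with H3K9ac in all 4 H3K9ac libraries ranked higher at 4% O2 by 6.74 points in round 1 and 9.83 in round 2. The 1026 regions at gene ends without H3K9ac in any library differed by −0.273 and 0.932 points. Away from gene ends, the 7638 regions with H3K9ac in all 4 libraries differed by 2.95 and 2.62 points, and the 21430 regions without it by −2.23 and −4.05 points. Rank was higher at 4% O2 in both rounds for 46.8% of regions at gene ends and lower in both for 13.1%, against 27.5% and 27.3% of all regions called in all 4 libraries. With H3K9ac at the gene end the shares were 54.4% and 9.07%, and without it 26.9% and 25.2%. Over all regions with H3K9ac in all 4 libraries, wherever they lay, the difference was 4.56 and 4.39 points within rounds. It was −0.912 without 4% O2 round 2 and −1.0 without 20% O2 round 1, where the rounds are unequally represented. None of these differences can pass 0.05 with 2 libraries per level.

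Split by RAD21, the regions moved opposite ways in the 2 rounds. The 20519 regions with RAD21 in all 4 RAD21 libraries differed by 0.346 and −0.978 points in rounds 1 and 2, and the 5345 regions without RAD21 in any library by −2.47 and 3.91 points. Regions with RAD21 in all 4 libraries were the stronger ones, with median ranks of 71.2 and 72.1 at 4% O2 and 70.8 and 73.1 at 20% O2. Those without RAD21 had median ranks of 20.0 and 16.9 at 4% O2 and 22.5 and 13 at 20% O2.

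**Figure D4:**
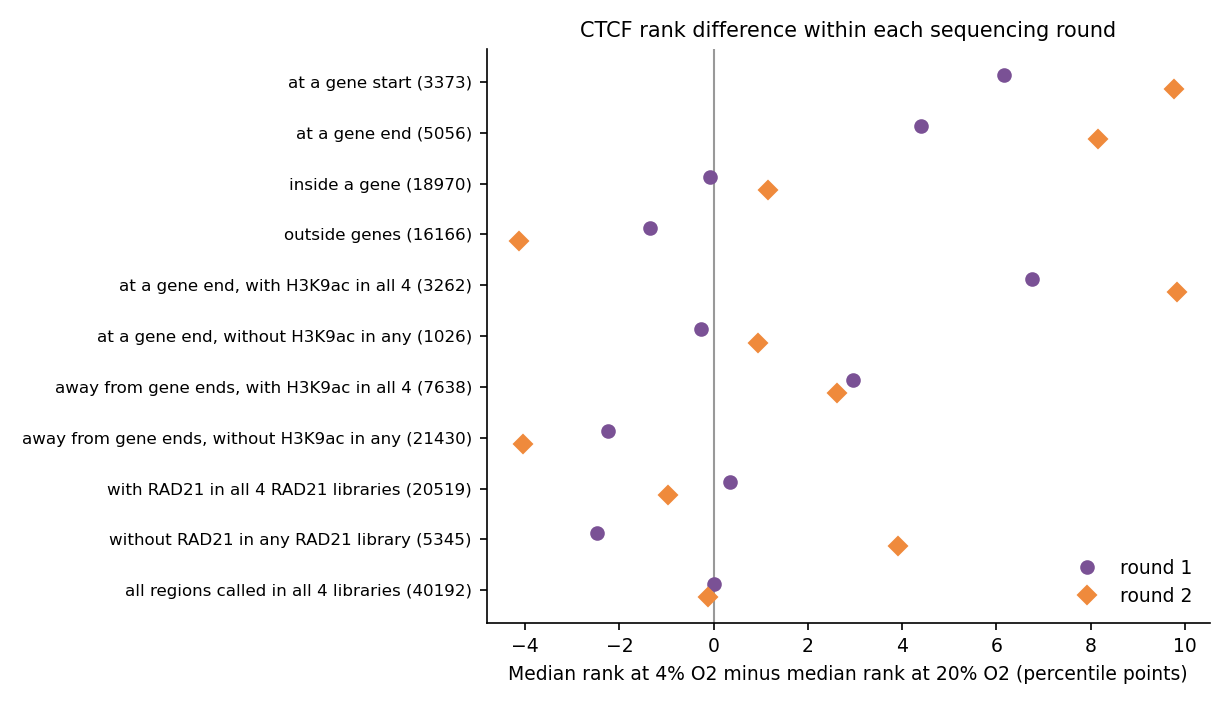
Difference of median CTCF rank, 4% O2 minus 20% O2 (x axis, percentile points), within round 1 (circles) and round 2 (diamonds), by class of region called in all 4 libraries (y axis, with the number of regions). Acetylated gene ends lie at 6.74 and 9.83 points, and regions away from gene ends without H3K9ac at −2.23 and −4.05 points.

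No single region passed a test of rank. limma on normal scores of the ranks called 0 of 40192 regions higher and 0 lower at 4% O2 at an adjusted p under 0.05 (0.0% in each direction), with 93 higher and 64 lower at an unadjusted p under 0.05. With the round as a block the counts were again 0 and 0, with 1124 higher and 1381 lower at an unadjusted p under 0.05.

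Regions at gene ends with the smallest p are given as a description. They were chosen among regions that moved the same way in both rounds, so that agreement is no result. At Rnd1, a small GTPase, the region chr15:98677347-98678108 ranked 18.7 and 41.1 at 4% O2 and 3.56 and 0.892 at 20% O2. Its normal score difference was 1.53 with SE 0.39 (limma, unadjusted p = 0.00663, adjusted p = 1.0). Both 4% O2 libraries lay above both 20% O2 libraries there. At Srp19, a protein of the signal recognition particle, ranks were 5.24 and 26.8 at 4% O2, against 0.0908 and 1.05 at 20% O2. At Pold3, a subunit of DNA polymerase delta, they were 8.96 and 39.2 at 4% O2, against 1.32 and 2.25 at 20% O2. Most of the 10 regions of higher rank were weak at 20% O2, as Syde2, Zfp128, Cebpzos, Hectd3, Nisch and Rasa4 show in the plot of ranks. Some were weak at 4% O2 too, as Syde2 with ranks of 4.49 and 4.34, whereas Rasa4 had 19.5 and 53.0. The region shared by Decr2, a peroxisomal dienoyl-CoA reductase, and Nme4, a mitochondrial nucleoside diphosphate kinase, was strong throughout. It ranked 97.9 and 96.7 at 4% O2 and 81.8 and 86.4 at 20% O2.

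Among the 10 regions of lower rank at 4% O2, the smallest p belonged to Scin, which encodes the actin-severing protein scinderin. Its region ranked 10.2 and 10.8 at 4% O2 and 25.1 and 39.8 at 20% O2, a normal score difference of −0.79 with SE 0.33 (limma, unadjusted p = 0.0506, adjusted p = 1.0). At Snai1, a transcription factor of epithelial-mesenchymal transition, ranks were 6.14 and 2.68 at 4% O2, against 18.4 and 13.4 at 20% O2. The region between Alg5, a glycosyltransferase of N-glycan assembly, and Exosc8, an RNA exosome subunit, ranked 80.2 and 94.1 at 4% O2 and 96.5 and 99.5 at 20% O2. At Vps36, a subunit of ESCRT-II, ranks were 89.0 and 96.7 at 4% O2, against 98.3 and 99.8 at 20% O2. At Birc3, an inhibitor of apoptosis, ranks were 9.61 and 0.427 at 4% O2, against 22.1 and 12.7 at 20% O2. The others were at Nlgn2 and Tmem256, Magt1, Heg1, Ccdc88a and Nmur1.

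**Figure D5:**
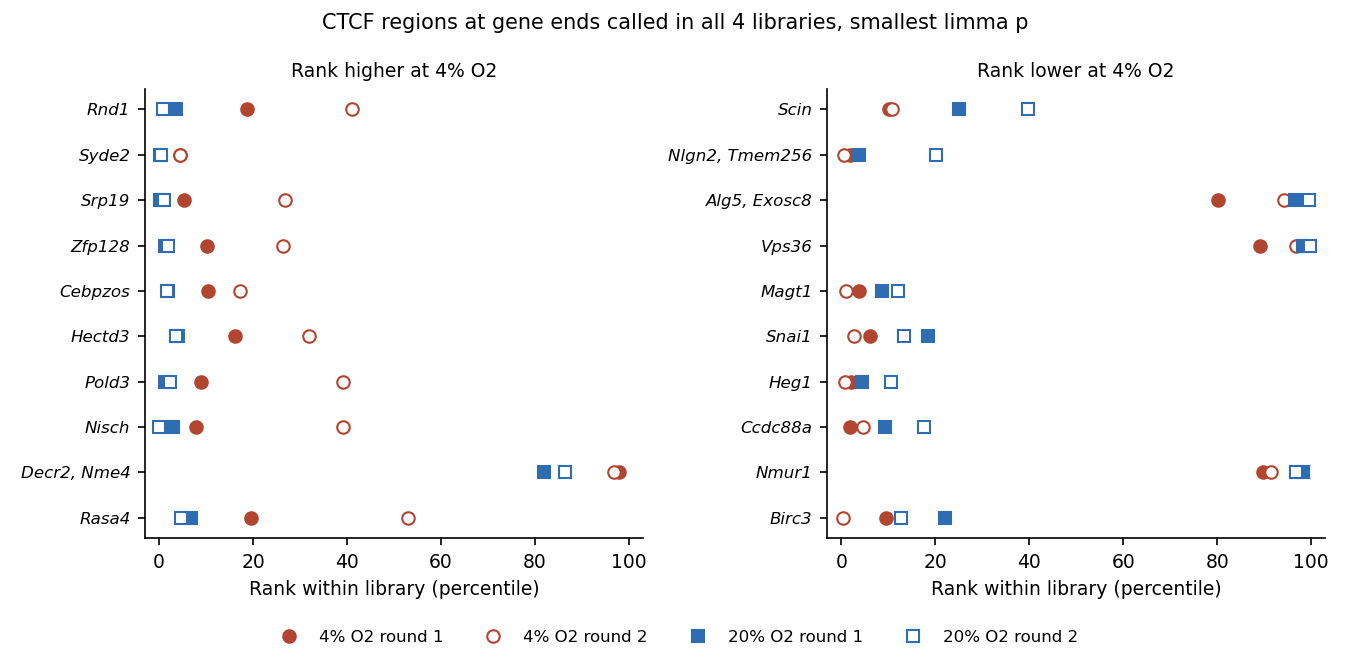
Rank of the peak score within each library (x axis, percentile) for the 20 regions at gene ends with the smallest limma p and the same direction in both rounds (y axis, genes at the region). Red circles are 4% O2 and blue squares 20% O2, filled for round 1 and open for round 2; at Rnd1 the ranks are 18.7 and 41.1 at 4% O2 and 3.56 and 0.892 at 20% O2.

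Counted by gene, 253 protein-coding genes had a CTCF peak within 1 kb of an annotated start or end in both libraries at 4% O2 and in neither at 20% O2. That is 2.53% of the 9983 genes with a call in at least 1 library. In the other direction there were 25 genes, or 0.25%. Within round 1 there were 1231 genes at 4% O2 only and 367 at 20% O2 only, and within round 2 there were 1086 and 600. At gene starts there were 203 genes (3.0% of 6769) at 4% O2 only and 9 (0.133%) at 20% O2 only. Part of these counts comes from the border of the window. A merged region that touches a gene end had a 20% O2 call for 39 of the 253 genes and a 4% O2 call for 17 of the 25 genes. Moreover, the 2 libraries of a level did not always call the same region. A region called in both libraries of that level alone was touched by 165 of the 253 genes and 3 of the 25.

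The strongest genes of this kind were mostly border cases. By mean score percentile the leading 10 genes of 4% O2 only included Pomgnt2, Riiad1, Tbl3, Ltbp4, Ly6g6d, Pou5f1, Sp6, Tmem107 and Canx, and 8 of the 10 touch a region called in all 4 libraries. At Pomgnt2 the peak scored 939 and 303 at 4% O2 and reached the window there, while the region was called in all 4 libraries. The leading 10 of 20% O2 only were L1td1, Galp, Lad1, Arrdc3, Vsig10l, Dcdc5, Map3k21, Aqp12, Got1 and Htr1b. Each of these touches a region that also has a 4% O2 call, and 7 touch a region called in all 4 libraries. With a window of 250 bp, 1 of the 10 genes of 4% O2 only and 0 of the 10 genes of 20% O2 only kept their call at one level.

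A stricter count, chosen after these values were seen, asks that the region itself be called in both libraries of one level and that no region at either gene end have a call of the other level. It leaves 157 genes at 4% O2 only (1.57% of 9983) and 3 genes at 20% O2 only (0.0301%). The 157 genes had peaks of middling to low strength, with scores from 2.36 to 36.4 (median 11.1) in round 1 and from 2.89 to 28.3 (median 7.12) in round 2. Of 123 with a start in the promoter table, 96 had the peak within 1 kb of the start in both rounds. H3K9ac was called at the ends of 148 of the 157 genes (94.3%) in all 4 H3K9ac libraries, against 78.7% of the genes with any CTCF call. RAD21 was called in none of the 4 RAD21 libraries at 56 of them (35.7%), against 29% of the genes with any CTCF call. It was called in all 4 at 5 of the 157 genes (3.18%), against 28.8% of the genes with any CTCF call. For genes that touch a region called in all 4 CTCF libraries, the RAD21 shares were 12.6% in none and 44.0% in all 4.

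The 10 strongest of these genes, by the same order, carried peaks near the middle of each list. At Tmem107, a protein of the ciliary transition zone, the peak scored 17.8 and 27.2 in rounds 1 and 2 at 4% O2 (percentiles 48.6 and 75.1), and there was no peak at 20% O2. Its centre lay 6 and 191 bp from the gene start. At Canx, the endoplasmic reticulum chaperone calnexin, the peak scored 24.0 and 13.4 at 4% O2 with no peak at 20% O2, and it lay at the 3′ end of the gene. At Stx1a, the syntaxin of synaptic vesicle fusion, the peak scored 30.3 and 11.5 at 4% O2 with no peak at 20% O2. It lay 516 and 538 bp from the start. Both 4% O2 libraries called these peaks in the same place, with overlapping peaks.

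Npepps, a cytosolic aminopeptidase, had scores of 19.7 and 15.2 at 4% O2 and no peak at 20% O2. Eif3b, a subunit of the initiation factor eIF3, had scores of 33.8 and 9.72 at 4% O2 and no peak at 20% O2. At Ptk2, the focal adhesion kinase, the scores were 26.9 and 10.3 at 4% O2, with no peak at 20% O2. The convergent genes Mpg, a DNA glycosylase, and Nprl3, a subunit of the GATOR1 complex, share one peak at their 3′ ends, which scored 23.5 and 10.5 at 4% O2. Gpr137 and Atp2b3, a calcium pump of the plasma membrane, complete the 10. H3K9ac was called in all 4 H3K9ac libraries at each of these genes except Atp2b3, where it was missing from the 4% O2 round 1 library. RAD21 was called at 2 and 8 of the 10 genes in rounds 1 and 2 of the 4% O2 RAD21 libraries, against 0 and 6 in the 20% O2 ones. The 20% O2 round 1 list was also the shortest of the 4 RAD21 lists.

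The 3 genes of 20% O2 only included Itih2 and Mcat. At Itih2, a heavy chain of inter-alpha-trypsin inhibitor, no peak was called at 4% O2 and the scores were 6.46 and 9.01 at 20% O2. Mcat, a mitochondrial malonyltransferase, had no peak at 4% O2 and scores of 6.05 and 7.68 at 20% O2. H3K9ac was called at Mcat in all 4 H3K9ac libraries and at Itih2 in none.

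The gene lists are read against all 21887 protein-coding genes, expressed or not, of which 9983 (45.6%) had a CTCF call at a gene end in at least 1 library and 6043 (27.6%) in all 4. Of 49 HIF targets and glycolysis genes, 37 were called in at least 1 library and 25 in all 4. None of the 37 was called at one O2 level only; with 2.53% and 0.25% of all called genes in those classes, nothing is read from a count of 0 in a list of this size or smaller. Raw scores depend on the list as a whole, so strengths at single genes are given as percentiles of the list. At Slc2a1, the glucose transporter GLUT1, the peak stood at percentiles 85.9 and 90.6 at 4% O2, against 84.2 and 76.8 at 20% O2. At Vegfa, the angiogenic growth factor, it stood at 98.1 and 98.9 at 4% O2, against 97.1 and 96.7 at 20% O2. Both genes stood higher at 4% O2 in each round, with no test made. These 2 genes were chosen after their values were seen, and the other members of the list were not set beside them. Of all shared regions at gene ends, 46.8% ranked higher at 4% O2 in both rounds, so nothing is read from these 2 genes. Of 12 hypoxia signalling factors 11 were called in at least 1 library, 9 in all 4 and 0 at one level only.

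Among 19 genes of nitric oxide signalling, 14 were called and 9 in all 4 libraries. Of these 14, 1 was called at 4% O2 only. It was Gucy1a1, a subunit of the nitric oxide receptor guanylate cyclase, with low scores of 5.66 and 3.21. Nos1 itself, the neuronal nitric oxide synthase, had a peak of score 4.62 in 4% O2 round 2 and none in the other libraries. Of 24 cholesterol genes, 19 were called and 8 in all 4 libraries. Of the 19, 2 were called at 4% O2 only. They included Fdps, an enzyme of the mevalonate pathway, with scores of 11.1 and 10.1. Rpl10 and Rpl27a were the members of 81 cytosolic ribosomal protein genes called at 4% O2 only, 2 of 55 with a call in at least 1 library, which lies near the 2.53% of all called genes. Among 81 nuclear oxidative phosphorylation genes, 53 were called in at least 1 library and 2 of them at 4% O2 only. These included Ndufb3, a subunit of respiratory complex I. Beside the 2.53% of all called genes, nothing is read from counts of 1 or 2 in lists this short. No member of any of these lists was called at 20% O2 only.

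Genes with classical CTCF sites were examined by name, within 1 kb of their annotated ends. Of 39 imprinted genes, 18 were called in at least 1 library, 13 in all 4 and 0 at one level only. Of all protein-coding genes, 45.6% were called in at least 1 library and 27.6% in all 4, and nothing is read from the count of 0. The imprinting control region of H19 is bound by CTCF on the maternal allele, but that region was not examined as such. The peak at the ends of the H19 gene stood at percentiles 74.5 and 69.8 at 4% O2, against 67.8 and 65.7 at 20% O2. Kcnq1ot1 and Meg3 had no call within 1 kb of their annotated ends in any library. At Xist, the RNA of X inactivation, the percentiles were 91.3 and 82.6 at 4% O2, against 91.8 and 81.9 at 20% O2. Firre, an X-linked RNA gene with many CTCF sites, had a peak at percentile 62.8 in round 1 and no peak in round 2 at 4% O2, and peaks at 60.7 and 14.7 at 20% O2.

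In the Hox clusters, 11 of 41 genes were called in at least 1 library, against 45.6% of all protein-coding genes. In all 4 libraries 5 were called, against 27.6% of all, namely Hoxb8, Hoxc5, Hoxc10, Hoxd11 and Evx2. The strongest was Hoxc10, at percentiles 98.3 and 99.4 at 4% O2, against 98.2 and 99.8 at 20% O2. Of 19 genes for CTCF, cohesin and its loaders, 11 were called, 8 in all 4 libraries and 0 at one level only, beside the same shares of all genes. Ctcf itself stood at percentiles 83.5 and 96.1 at 4% O2, against 83.1 and 96.0 at 20% O2.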

How the data were processed

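Each deposited list was made from 1 library. Per the submitters' processing notes, the build was mm10 and the tools were BWA, Picard, SICER and MACS2; no source used here gives versions or settings. CTCF, RAD21 and H3K9ac peaks were called with MACS2 and POLR2 islands with SICER, per the file headers. The score of the deposited MACS2 lists was read, from its values, as −log10 of a q-value, and served to rank and filter peaks within a list. Deposited SICER lists end in a count of reads per island, again judged from its values; the intervals alone were used. The members and gene lists were chosen with earlier results of these data known.

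Chromosomes 1 to 19, X and Y were used. Gene ends, with windows of 1 kb, came from 21887 protein-coding genes of RefSeq GRCm38.p6, and starts from the promoter table (17492 genes). A region counted as called at one O2 level only when both of its libraries and neither of the other level had a peak. Ranks over regions called in all 4 libraries were turned into normal scores and fitted with limma 3.58.1 (R 4.3.3), with Benjamini-Hochberg adjustment over 40192 regions; the fit and the interval code were tested on simulated data. An exact two-sided permutation test compared values per library (SciPy 1.17.1). Genes named were the 10 per direction with the highest mean percentile among gene ends called at one level only, the 10 per direction with the smallest limma p among shared regions at gene ends that moved the same way in both rounds, list members called at one level only, and classical CTCF sites. Same-numbered libraries shared a flow cell, per the file headers, and their deviations from the level means correlated at 0.688 over regions, so the replicate number pairs the samples. The permutation tests and the main limma fit do not use this pairing, so their p-values include the spread between rounds. The within-round differences and the limma fit with the round as a block do use it. The count of motifs inside peaks was added after these values were seen. Inputs and the phosphorylated polymerase forms are not analysed here, and some genes are not reported here.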

Additional observations from a re-analysis of the deposited data

How the results depend on the processing

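Counts of one-level calls depended on the rule. Regions of 4% O2 only and of 20% O2 only numbered 1351 and 668 with scores of at least 5 (2126 and 959 in all), 442 and 140 with scores of at least 10, 647 and 426 with lists of equal length, and 2413 and 1242 with an overlap of at least 0.5 of the shorter interval. Within rounds, with the replicate as a block, they numbered 19523 and 21612 in round 1, where 20% O2 had more, and 23374 and 16256 in round 2. Leaving out 1 library gave 3821 to 18052 regions of 4% O2 only and 1634 to 19544 of 20% O2 only, since fewer calls are then required. The difference in their share at gene ends was 21.6 percentage points with scores of at least 10, 22.0 at equal length, 12.6 with that overlap, 8.65 and 6.13 within rounds as replicate blocks, and 5.36 to 15.9 without 1 library.

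Genes of 4% O2 only and 20% O2 only numbered 114 and 15 with scores of at least 10, 155 and 23 at equal length, 157 and 3 by the region at the gene end (added after seeing the data), 1231 and 367 within round 1, 1086 and 600 within round 2, and 532 to 858 and 81 to 370 without 1 library. The causes were not tested.

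Measures of the whole lists, 4% minus 20% O2, changed sign. The difference in peaks was 3242, −2076 within round 1, −1837 with scores of at least 10 and −23595 to 30078 without 1 library. Covered length differed by 0.208 Mb, by −1.11 Mb within round 1, −1.11 Mb with scores of at least 10, −0.321 Mb at equal length and −0.638 to 1.05 Mb without 1 library. Median width differed by −19 bp, by 11.5 bp with scores of at least 10 and by −89.0 to 51.0 bp without 1 library. The share of peaks with RAD21 differed by −0.229 points, by 6.89 within round 1, 3.31 with scores of at least 10, 1.92 at equal length and −20.3 to 19.8 without 1 library. Without 1 library, the share at gene ends differed by −0.130 to 2.76 points and the share with H3K9ac by −4.93 to 12.1 points.

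The rank difference of regions inside genes was −0.0715 within round 1. With RAD21 in all 4 libraries it was 0.346 within round 1 and −1.43 to 0.794 without 1 library, and without RAD21 −2.47 within round 1 and −4.02 to 5.46 without 1 library. With H3K9ac in all 4 libraries it ran from −1.0 to 9.95, and without H3K9ac from −6.40 to 0.497. Regions at gene ends kept a positive difference, from 0.115 to 12.4 without 1 library. limma called 0 regions in every alternative run. Over all alternatives, 94 values for comparisons were counted as the same in direction, though their size could differ, 42 as moved and 31 as reversed. For named genes and regions, 168 values were counted as the same and 32 as moved. The named genes and regions were chosen by these same calls and ranks, so their kept direction is no result.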
